A study of Homo sapiens with 5 samples.

Results

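The comparison set the week 6 array against the week 4 array of a time course in which the established human embryonic stem cell line H9 was differentiated into cells meant to resemble corneal epithelium. It covered every named gene above background on at least 1 of these 2 arrays, which was 11725 of the 13002 genes above background anywhere in the series. Week 6 and week 4 cells carried the same labels apart from time: line H9, differentiating cells, and E6 medium exchanged daily until harvest. The other arrays of the series were week 8 and week 2 of the same differentiation and week 0, the undifferentiated line, so 5 arrays were hybridised in all. Each week had 1 array, described by the submitters as a non-replicate, so every difference below is between 2 arrays, has no replicate check and carries no test, and the spread between cultures is unknown. A single cell line was used, and total RNA came from whole cultures. Fewer cells of a type and less RNA per cell therefore cannot be told apart.

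The corneal surface is a stratified epithelium that arises from the surface ectoderm under the transcription factor PAX6. Its limbal and basal cells are known for the keratins KRT5, KRT14 and KRT15, and its mature cells for the keratin pair KRT3 and KRT12. The lens also comes from surface ectoderm, while the retina, retinal pigment epithelium, forebrain and choroid plexus come from neural ectoderm, and melanocytes and the cells of the corneal stroma come largely from the neural crest.

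Checked against the markers of the target tissue, KRT5 and KRT14 were above background on the week 6 and week 4 arrays and KRT15 on the week 6 array only. Among 14 measured genes of basal and limbal keratinocytes those 3 keratins rose and 11 were not called, with a median log2 difference of 0.36 and 6 of the 14 below 0. KRT19, a keratin of that list named after its values were seen, was below background on both arrays, and KRT3 and KRT12 were below background at both weeks. PAX6 had a log2 level of 10.97 at week 6 and 11.13 at week 4, a log2 difference of -0.16, and was not called. KRT5, the basal keratin partner of KRT14, had a log2 level of 10.76 at week 6 and 8.13 at week 4 and rose 6.21-fold. Of 30 genes listed for corneal epithelium, 15 were measured at either week, and ALDH3A1, AQP5 and SLURP1, named after their values were seen, were among those below background at both.

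A level is the background-corrected, quantile-normalized probe intensity on the log2 scale, and a fold is week 6 over week 4. Genes called higher ("rose") or lower ("fell") differed by at least 2-fold, with the brighter array above background. Where the dimmer array was not above background, the fold is given as "at least", since only a bound can be stated. By this rule 730 genes were higher at week 6 (6.23% of those measured) and 500 were lower (4.26%), while 10495 were not called. The median log2 difference over all genes was -0.01, the median absolute difference was 0.34, and the quartiles of the difference were -0.33 and 0.34. At least 4-fold differences were seen in 133 higher and 75 lower genes, and at least 16-fold differences in 7 higher and 3 lower genes. At the edge of the rule BICRAL was called at a log2 difference of 1.001 and ARHGEF3 was not at 0.9986, while VOPP1 was called lower at -1.0009 and MYO16 was not at -0.9989. The threshold ran through a dense part of the distribution, since 218 called genes lay between 1 and 1.1 and 299 uncalled genes between 0.9 and 1 in absolute difference.

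**Figure D1:**
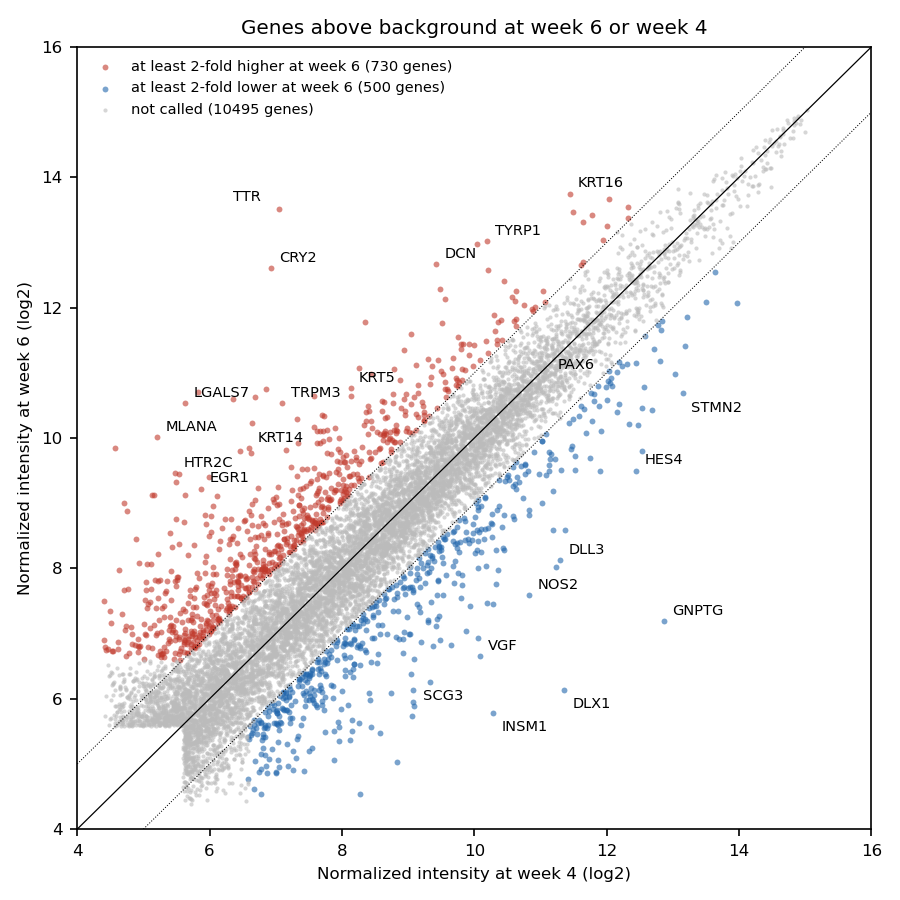
Each point is 1 of 11725 genes, with its log2 normalized intensity at week 4 on the x axis and at week 6 on the y axis; the solid line marks equal values and the dotted lines a 2-fold difference. Red points are the 730 genes at least 2-fold higher at week 6, blue points the 500 at least 2-fold lower and grey points the 10495 not called; TTR lies farthest above the line and GNPTG and DLX1 farthest below it. Genes are drawn at their own values, so some near the detection limit lie beyond a dotted line without a call.

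Fewer genes were called than in the preceding interval and more than in the following one. From week 2 to week 4, 851 genes were higher and 635 lower, and from week 6 to week 8 the counts were 230 and 129. Across 21928 probes the Pearson correlation of the week 6 array was 0.95 with week 4 and 0.98 with week 8, as a description of arrays on 1 chip whose probes are not independent. Probes above background numbered 17534 at week 6 and 17424 at week 4.

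Grouped by function, the risen genes included many of lens, pigment cell, epithelium, matrix, choroid plexus, cilium and the immediate early response, and the fallen genes included many of pluripotency, forebrain, neurons and DNA replication. Genes higher at week 6 made up 64.7% of 17 measured melanocyte genes and 64.3% of 14 measured lens genes. Genes lower at week 6 made up 66.7% of 15 pluripotency genes, 57.7% of 26 forebrain progenitor genes, 47.7% of 44 neuron genes and 31.7% of 41 DNA replication genes. These shares stand beside 6.23% and 4.26% over all genes and describe these arrays.

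**Figure D2:**
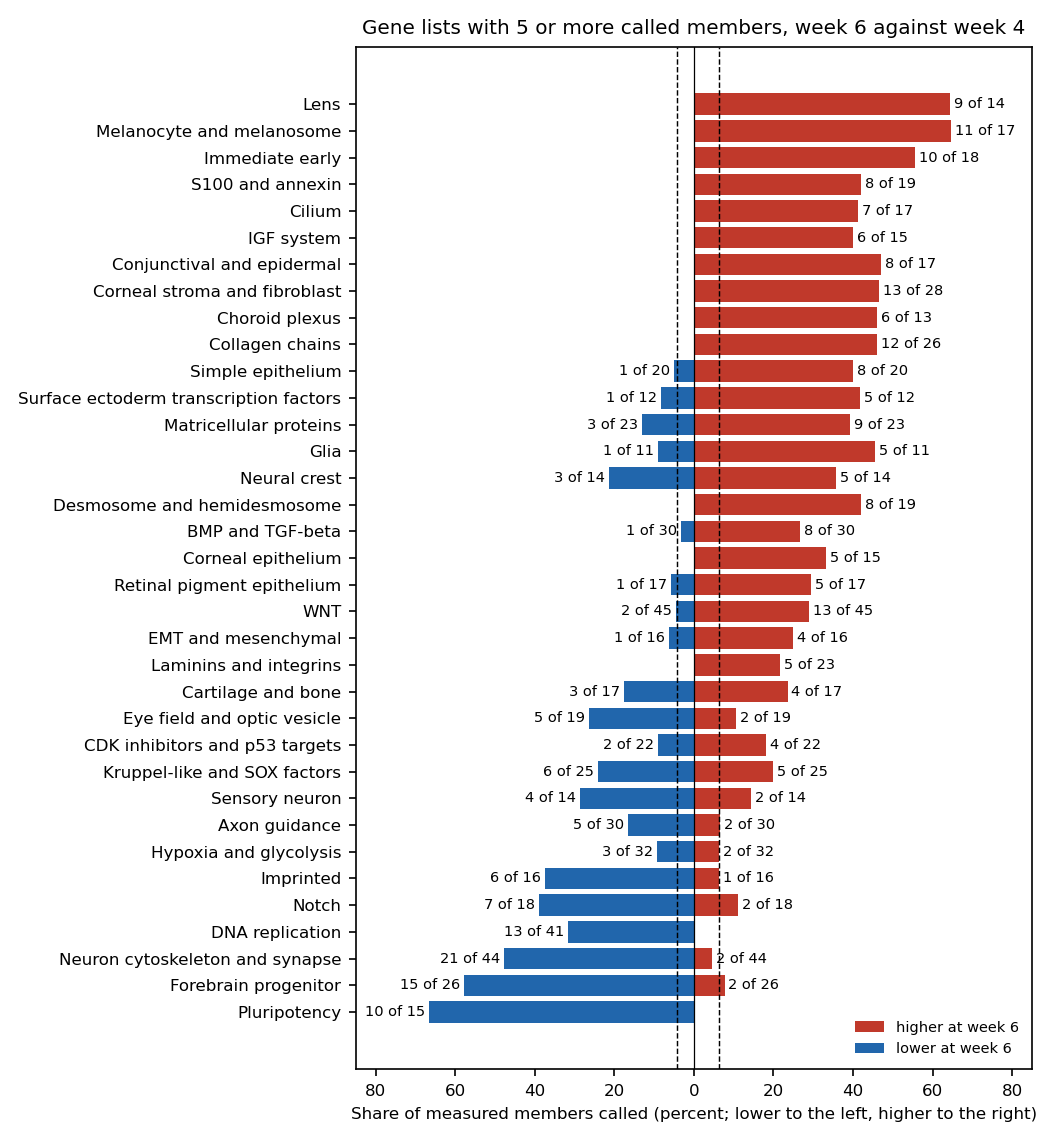
Bars give the percentage of each list's measured members called at least 2-fold higher at week 6 (red, to the right) or lower (blue, to the left), with the counts beside them, for the lists with at least 5 called members; dashed lines mark the 6.23% higher and 4.26% lower over all genes. Lists are ordered by median difference, from lens at the top to pluripotency at the bottom.

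Pigment genes gave a large and one-sided group. Of 17 measured genes of melanocytes and melanosomes, 11 rose and none fell, with a median log2 difference of 1.14. Both melanocytes and retinal pigment epithelium make melanin with the enzymes TYR and TYRP1 inside melanosomes, and their genes share the transcription factor MITF, which is known to bind the M-box, an extended E-box with the letters TCATGTG. The M-box letters, on either strand, were found in the promoter window of 3 of the 8 risen pigment genes that have an entry in the RefSeq table (GRCh38.p14), against 2.99% of 27305 promoters in the table and 1.76% of the promoters of measured genes. The window covers 250 bases before and 50 bases from the gene's start. The 3 sequences are shown because they carry the letters upstream of genes that rose 7.11-fold to 8.93-fold; capitals mark the M-box, and the last 50 bases lie at or after the start.
TYR: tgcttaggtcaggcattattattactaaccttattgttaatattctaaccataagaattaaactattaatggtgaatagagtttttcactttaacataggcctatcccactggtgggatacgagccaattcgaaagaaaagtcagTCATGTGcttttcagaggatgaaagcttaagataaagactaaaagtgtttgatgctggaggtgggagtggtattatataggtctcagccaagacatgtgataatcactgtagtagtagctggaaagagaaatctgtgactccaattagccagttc
TYRP1: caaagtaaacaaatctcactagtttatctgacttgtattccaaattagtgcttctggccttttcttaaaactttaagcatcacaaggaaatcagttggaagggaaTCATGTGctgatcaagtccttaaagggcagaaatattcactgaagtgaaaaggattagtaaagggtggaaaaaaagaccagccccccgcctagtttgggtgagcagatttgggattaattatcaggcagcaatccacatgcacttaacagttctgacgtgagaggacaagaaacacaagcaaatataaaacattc
GPNMB: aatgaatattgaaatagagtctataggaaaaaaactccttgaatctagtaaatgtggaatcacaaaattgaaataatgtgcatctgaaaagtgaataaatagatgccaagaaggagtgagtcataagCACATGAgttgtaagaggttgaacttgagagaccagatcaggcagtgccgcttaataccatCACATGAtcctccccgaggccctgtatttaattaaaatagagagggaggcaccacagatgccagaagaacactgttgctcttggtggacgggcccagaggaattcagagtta
The TYR window is chr11:89177625-89177924 on the plus strand, with the M-box at 105 bases before the start. The TYRP1 window is chr9:12693135-12693434 on the plus strand, with the M-box at 145 bases before the start. The GPNMB window is chr7:23246525-23246824 on the plus strand, and its letters stand on the reverse strand, as CACATGA, at 123 and 62 bases before the start. A match of letters is a description and shows no binding in these cells.

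TYR, tyrosinase, the rate-limiting enzyme of melanin synthesis, had log2 levels of 4.45, 4.68, 6.62, 9.78 and 10.12 at weeks 0, 2, 4, 6 and 8 and rose 8.93-fold between weeks 4 and 6. TYRP1, which acts after tyrosinase in making eumelanin, had a log2 level of 13.02 at week 6 and 10.19 at week 4 and rose 7.11-fold. MLANA, a melanosome protein, had a log2 level of 10.01 at week 6 and was not above background at week 4, a rise of at least 21.3-fold. MLANA was thus first detected at week 6, while TYR and TYRP1 were already above background at week 4. GPNMB, a melanosomal glycoprotein, had a log2 level of 10.64 at week 6 and 7.57 at week 4 and rose 8.36-fold, although a further probe of GPNMB differed by only 0.42. SLC45A2, a melanosomal transporter, had a log2 level of 8.96 at week 6 and 6.05 at week 4 and rose 7.50-fold. PMEL, which forms the fibrils on which melanin is laid down, was already at 12.03 at week 4 and reached 13.66 at week 6 on the log2 scale, a 3.09-fold rise.

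Regulators of the pigment lineage rose in part. MITF itself, named after its values were seen, had a log2 level of 7.90 at week 6 and 6.76 at week 4 and rose 2.21-fold. KIT, the receptor for stem cell factor on melanocytes, had a log2 level of 8.98 at week 6 and 7.34 at week 4 and rose 3.10-fold, while a further probe of KIT differed by -0.19. RAB38, which directs cargo to melanosomes, had a log2 level of 10.46 at week 6 and 8.89 at week 4 and rose 2.96-fold. SOX10, a neural crest factor upstream of MITF in melanocytes, was not called, with a log2 level of 8.50 at week 6 and 7.87 at week 4, and MC1R, the melanocortin receptor, was not called at a log2 difference of 0.56. The number of pigment genes that rose was 8 without background correction and 8 with the authors' processed values.

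Lens genes rose without exception among those called. Of 14 measured lens genes 9 rose and none fell, with a median log2 difference of 1.36, but only 6 of the 9 were above background on both arrays. Crystallins are the abundant soluble proteins that give the lens its transparency. CRYAA, the lens alpha-crystallin chaperone, had log2 levels of 5.54, 6.24, 8.26, 11.08 and 12.63 at weeks 0, 2, 4, 6 and 8 and rose 7.04-fold between weeks 4 and 6. CRYAB, its partner, which many other tissues also make, had a log2 level of 8.54 at week 6 and 6.89 at week 4 and rose 3.15-fold. CRYGS, a gamma-crystallin, had a log2 level of 8.22 at week 6 and 6.45 at week 4 and rose 3.41-fold. The beta-crystallins CRYBA2 and CRYBA4 were not above background at week 4 and rose by bounds of at least 3.56-fold (CRYBA2) and 2.43-fold (CRYBA4). The CRYBA2 probe was above background in the undifferentiated line, at 7.11 beside 7.43 at week 6, and that of CRYBA4 was not. LIM2, a membrane protein of lens fibre cells, had a log2 level of 7.94 at week 6 and 5.92 at week 4 and rose 4.04-fold. MAF and PROX1, transcription factors of lens fibre differentiation, rose 2.84-fold and at least 2.70-fold.

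The lens list also held genes that did not move with the crystallins. DNASE2B, the nuclease that clears DNA from lens fibres, was not called. Its log2 levels were 13.5, 12.98, 13.61, 13.29 and 13.23 at weeks 0, 2, 4, 6 and 8. The probe was thus as bright in the undifferentiated line as later, and whether it reports lens expression was not tested. SIX3, which acts early in lens and eye formation, differed by -0.18 on the log2 scale and was not called. The count of risen lens genes depended on the background: it was 6 with an offset of 50, 5 without background correction and 3 with the authors' processed values.

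Promoters of the risen lens genes were set against the same table because crystallin genes are known for compact promoters with a TATA box. The letters TATAAA, on either strand, were found in 4 of 7 such promoters (CRYBA2, CRYGS, MAF and CRYBB1, the last named after its value was seen), against 11.95% of all promoters and 6.28% of those of measured genes. The letters TGACTCA, which AP-1 factors such as FOS and JUN are known to bind, were found in CRYBA2 and CRYGS, against 4.92% of all promoters. The motifs do not share letters in the windows shown, where capitals mark both; in CRYGS the capitals farther upstream that read TTTATA are TATAAA on the reverse strand.
CRYGS: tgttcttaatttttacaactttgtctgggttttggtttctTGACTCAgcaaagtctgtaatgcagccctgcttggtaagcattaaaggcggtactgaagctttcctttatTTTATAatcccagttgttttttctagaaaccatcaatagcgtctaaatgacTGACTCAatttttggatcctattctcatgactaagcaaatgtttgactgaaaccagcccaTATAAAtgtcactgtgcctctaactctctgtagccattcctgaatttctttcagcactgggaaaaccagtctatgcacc
CRYBA2: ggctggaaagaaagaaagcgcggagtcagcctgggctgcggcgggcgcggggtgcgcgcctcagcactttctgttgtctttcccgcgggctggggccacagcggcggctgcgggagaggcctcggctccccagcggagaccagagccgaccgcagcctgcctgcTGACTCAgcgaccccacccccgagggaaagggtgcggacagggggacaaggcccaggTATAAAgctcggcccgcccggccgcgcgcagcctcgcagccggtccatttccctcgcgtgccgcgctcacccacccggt
The CRYGS window is chr3:186544331-186544630 on the minus strand, with TATAAA at 29 bases and TGACTCA at 210 and 89 bases before the start. The CRYBA2 window is chr2:218993373-218993672 on the minus strand, with TATAAA at 29 bases and TGACTCA at 86 bases before the start.

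**Figure D3:**
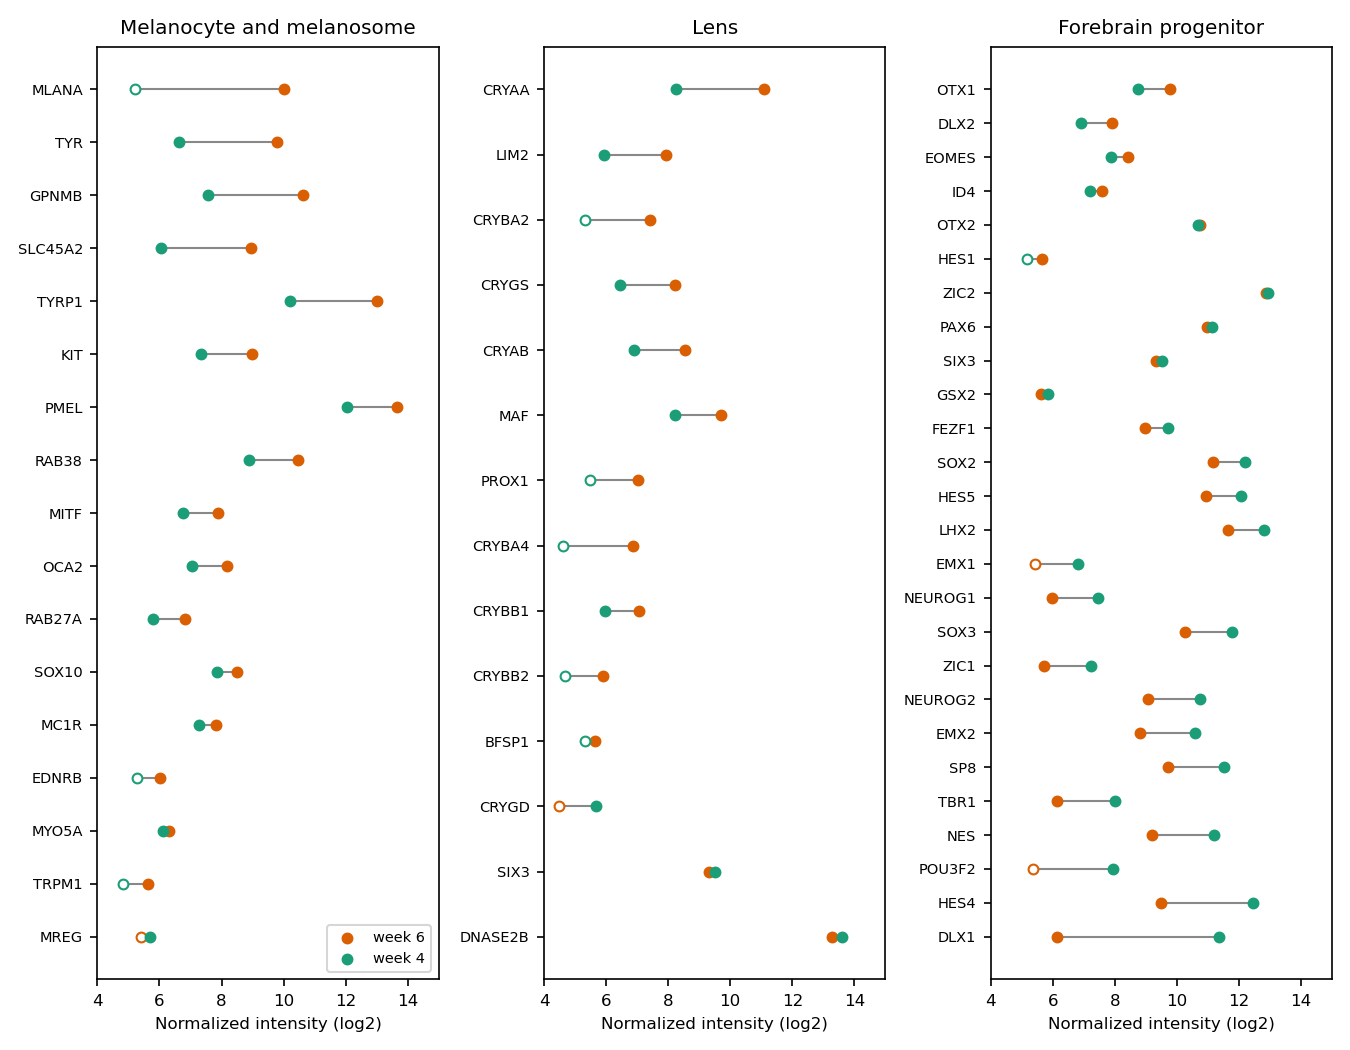
Log2 normalized intensity at week 6 (orange) and week 4 (green) for all measured members of 3 lists, joined by a line for each gene and ordered by difference; open circles are not above background. Pigment and lens genes lie mostly to the right at week 6, while forebrain genes lie mostly to the left, DLX1 farthest.

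Most measured keratins and some other genes of stratified epithelium rose. KRT5 had log2 levels of 4.86, 4.73, 8.13, 10.76 and 12.31 at weeks 0, 2, 4, 6 and 8. KRT14 had a log2 level of 9.84 at week 6 and 6.60 at week 4 and rose 9.45-fold. KRT15, a keratin of limbal basal cells, had a log2 level of 7.05 at week 6, was not above background at week 4 and rose at least 2.74-fold. Basal keratins therefore differed in when they were first detected, with KRT5 and KRT14 above background at week 4 and KRT15 only from week 6. KRT16, a keratin of activated keratinocytes, had a log2 level of 13.75 at week 6 and 11.44 at week 4 and rose 4.95-fold, and a further probe of KRT16 differed by 3.28. KRT13, a keratin of conjunctiva and other mucosal epithelia, had a log2 level of 7.16 at week 6, was not above background at week 4 and rose at least 2.95-fold. KRT1, a keratin of the upper epidermis, had a log2 level of 11.88 at week 6 and 10.30 at week 4 and rose by 1.59 on the log2 scale. Its probe was already at 10.21 in the undifferentiated line. The calls for KRT15 and KRT13 were lost without background correction, at log2 differences of 0.62 and 0.68, and with the authors' processed values, at 0.73 and 0.89.

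Taken as a family after the values were seen, 11 of 16 measured keratin genes rose and none fell, with a median log2 difference of 1.51. KRT40, a hair keratin, had a log2 level of 11.79 at week 6 and 8.34 at week 4 and rose 10.9-fold, and KRT39, named after its value was seen, rose 6.03-fold. KRT18, a simple-epithelium keratin, had a log2 level of 8.57 at week 6 and 8.71 at week 4 and was not called.

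Corneal epithelium genes, KRT16 among them, rose in part. Among 15 measured members 5 rose and 0 fell, giving a median log2 difference of 0.61. KLF4, a transcription factor of epithelial differentiation, had a log2 level of 9.56 at week 6 and 7.23 at week 4 and rose 5.03-fold. GJB6, a gap junction connexin, had a log2 level of 8.52 at week 6 and 6.78 at week 4 and rose 3.34-fold. ALDH1A1, an aldehyde dehydrogenase, had a log2 level of 12.26 at week 6 and 11.04 at week 4 and rose 2.33-fold, and MUC16, a mucin of the ocular surface, rose 2.32-fold. TGFBI, a matrix protein secreted by corneal epithelium, had a log2 level of 12.93 at week 6 and 12.20 at week 4 and was not called.

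Genes of cornified and mucosal epithelium went the same way. Of 17 measured conjunctival and epidermal genes 8 rose and none fell, with a median log2 difference of 0.88. Without background correction 5 rose, and with the authors' processed values 4 rose. S100A8, a calcium-binding alarmin of keratinocytes and myeloid cells, had a log2 level of 9.13 at week 6, was not above background at week 4 and rose at least 11.6-fold. Its partner S100A9 had a log2 level of 8.53 at week 6 and 7.02 at week 4 and rose 2.85-fold. SPRR3, a precursor of the cornified envelope, had a log2 level of 9.52 at week 6 and 7.40 at week 4 and rose 4.34-fold. IVL, another envelope precursor, was not called, with a log2 level of 10.01 at week 6 and 10.08 at week 4, and was already at 9.24 at week 0. SFN, the 14-3-3 protein of stratified epithelia, rose 2.75-fold. LGALS7, a galectin of stratified epithelia, had a log2 level of 10.54 at week 6 and 5.64 at week 4 and rose 29.9-fold. LGALS7B, its near-identical copy, rose at least 10.6-fold, and these probes may not separate the copies.

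Adhesion genes of the desmosome, the junction that rivets epithelial cells together, rose in part. Of 19 measured desmosome and hemidesmosome genes 8 rose and none fell, with a median log2 difference of 0.66. DSC2, a desmosomal cadherin, rose 4.15-fold, a log2 difference of 2.05. PKP1, a plaque protein of stratified epithelium, had a log2 level of 7.80 at week 6, was not above background at week 4 and rose at least 4.62-fold. DSP, desmoplakin, which ties the plaque to keratin filaments, had a log2 level of 11.07 at week 6 and 9.67 at week 4 and rose 2.65-fold. COL7A1, the anchoring fibril collagen, rose 2.83-fold. DSG2, another desmosomal cadherin, was not called, with a log2 level of 11.89 at week 6 and 11.23 at week 4, but a further probe of DSG2 differed by 2.58. Further probes of DSC2 and DSP differed by 0.80 and 0.82, below 2-fold. The number of desmosome genes that rose was 4 without background correction and 3 with the authors' processed values.

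Some simple-epithelium genes and their regulators also rose, while the E-cadherin gene fell. Of 20 measured members 8 rose, CDH1 fell, and the median log2 difference was 0.82. Without background correction 4 rose, and with the authors' processed values 5 rose. OVOL2 and GRHL2, transcription factors that uphold the epithelial state, rose 3.92-fold and 2.41-fold. RAB25, a trafficking GTPase of epithelia, had a log2 level of 9.81 at week 6 and 8.18 at week 4 and rose 3.08-fold. EPCAM, an epithelial adhesion protein, had a log2 level of 11.72 at week 6 and 10.62 at week 4 and rose 2.14-fold. In the undifferentiated line OVOL2 and EPCAM were higher than at week 6, at log2 levels of 9.45 and 12.67. RAB25 was at 9.32 there, and GRHL2 was not above background. CDH1, which encodes E-cadherin, had log2 levels of 4.42, 8.60, 10.82, 9.50 and 8.75 at weeks 0, 2, 4, 6 and 8 and fell by a log2 difference of -1.32 after week 4. CDH1 was thus highest at week 4, and the undifferentiated line was below background for this probe although such cells are known to make E-cadherin. 

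Most measured forebrain regulators fell. Of 26 measured forebrain progenitor genes 15 fell and 2 rose, with a median log2 difference of -1.15. DLX1, a homeobox factor of ventral forebrain interneurons, had log2 levels of 5.06, 7.50, 11.36, 6.14 and 5.70 at weeks 0, 2, 4, 6 and 8 and fell 37.3-fold between weeks 4 and 6, although a further probe of DLX1 differed by -0.92. POU3F2, a factor of neural progenitors and upper-layer neurons, was not above background at week 6 and fell at least 5.18-fold, with a further probe at -2.30. EMX2, a factor of the dorsal forebrain, had a log2 level of 8.80 at week 6 and 10.59 at week 4 and fell 3.47-fold. LHX2, which patterns the forebrain and the optic vesicle, had a log2 level of 11.66 at week 6 and 12.82 at week 4 and fell 2.24-fold. NES, the intermediate filament nestin of neural progenitors, had a log2 level of 9.19 at week 6 and 11.18 at week 4 and fell 3.97-fold. OTX1 and DLX2, named after their values were seen, were the members that rose, 2.06-fold and 2.02-fold, and neither was called without background correction. OTX2, which marks forebrain, eye and choroid plexus, was not called, with a log2 level of 10.76 at week 6 and 10.68 at week 4. DLX6, a relative of DLX1 listed with the surface ectoderm factors, had a log2 level of 5.62 at week 6 and 8.25 at week 4 and fell 6.19-fold. It was the only fallen gene among 12 measured surface ectoderm factors, of which 5 rose as reported and 2 without background correction, with a median log2 difference of 0.81.

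Eye-field factors split. Of 19 measured eye-field and optic-vesicle genes 2 rose and 5 fell, with a median log2 difference of 0.04. SFRP1 and SFRP2, secreted WNT antagonists of the optic vesicle, fell 4.35-fold and 2.07-fold. SOX2, a progenitor factor shared by pluripotent, neural and eye cells, had a log2 level of 11.17 at week 6 and 12.19 at week 4 and fell 2.03-fold, a call lost without background correction at a log2 difference of -0.99. FZD5, a WNT receptor of the eye field, had a log2 level of 9.41 at week 6 and 8.13 at week 4 and rose 2.44-fold. SIX6, an optic vesicle factor, rose 2.01-fold, just above the threshold. Its log2 level was 9.75 in the undifferentiated line and 7.69 at week 6.

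Many neuron genes fell. Of 44 measured genes of the neuronal cytoskeleton, vesicles and synapses 21 fell and 2 rose, with a median log2 difference of -0.98 beside -0.01 over all genes, and 38 of the 44 had a difference below 0. STMN2, a regulator of growing microtubules in neurons, had log2 levels of 6.62, 12.61, 13.15, 10.69 and 10.96 at weeks 0, 2, 4, 6 and 8 and fell 5.50-fold between weeks 4 and 6, with a further probe at -2.67. SCG3, a granin of secretory granules, had a log2 level of 5.89 at week 6 and 9.09 at week 4 and fell 9.23-fold. Its probe was already at 9.62 in the undifferentiated line. MAPT, the axonal protein tau, had a log2 level of 7.21 at week 6 and 9.29 at week 4 and fell 4.24-fold. SYP, synaptophysin of synaptic vesicles, was not above background at week 6, had a log2 level of 7.88 at week 4 and fell at least 4.94-fold. SLC32A1, which loads GABA into vesicles, was above background at week 4 only and fell at least 4.90-fold. Other neuronal genes were well above background at week 6. TUBB3, neuronal beta-tubulin, named after its values were seen, had a log2 level of 11.42 at week 6 and 13.18 at week 4 and fell 3.40-fold. GAP43, a growth cone protein, was not called. Its log2 levels were 12.21, 12.18, 12.17, 12.05 and 11.92 at weeks 0, 2, 4, 6 and 8. This probe was thus as bright in the undifferentiated line, and whether it reports neuronal expression was not tested.

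CNTN2 and ELAVL4 were the neuron genes that rose. CNTN2, an axonal adhesion protein, had a log2 level of 8.33 at week 6, was not above background at week 4 and rose at least 6.65-fold. ELAVL4, a neuronal RNA-binding protein, named after its values were seen, had a log2 level of 9.70 at week 6 and 8.44 at week 4 and rose 2.40-fold.

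The genes that fell also held several known from neural or neuroendocrine cells, given here for their size or their list and not as a group with a count. INSM1, a zinc-finger factor of new-born neurons and neuroendocrine cells, had log2 levels of 4.41, 4.41, 10.29, 5.79 and 7.06 at weeks 0, 2, 4, 6 and 8 and fell 22.6-fold between weeks 4 and 6. NEUROG2, a proneural factor, had a log2 level of 9.07 at week 6 and 10.74 at week 4 and fell 3.17-fold. ST18, a zinc-finger factor of differentiating neurons, was not above background at week 6 and fell at least 7.29-fold. NR2E1, a nuclear receptor of neural stem cells, had a log2 level of 6.14 at week 6 and 9.07 at week 4 and fell 7.61-fold. VGF, a neuropeptide precursor, had a log2 level of 6.66 at week 6 and 10.08 at week 4 and fell 10.7-fold. SCGN, a calcium sensor of neuroendocrine cells, was above background at week 4 alone of the 5 arrays and fell at least 6.50-fold.

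In sensory neuron genes the calls went both ways. Of 14 measured members 2 rose and 4 fell, with a median log2 difference of -0.16. SST, somatostatin, had a log2 level of 6.57 at week 6 and 8.44 at week 4 and fell 3.68-fold, and POU4F1, a sensory neuron factor, fell at least 3.79-fold. PRPH, peripherin, the intermediate filament of peripheral neurons, had a log2 level of 10.15 at week 6 and 7.90 at week 4 and rose 4.77-fold. Of 30 measured axon guidance genes 2 rose (6.67%) and 5 fell (16.7%), beside 6.23% and 4.26% over all genes. With the authors' processed values 2 fell. SLIT3, a secreted repellent, rose 4.56-fold, and DRAXIN, another secreted guidance protein, fell at least 3.20-fold.

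Notch pathway genes, which hold neural progenitors back from differentiating, fell more often than they rose. Of 18 measured members 7 fell and 2 rose, with a median log2 difference of -0.47. DLL3, a ligand-like inhibitor of Notch signalling, had log2 levels of 9.05, 10.98, 11.30, 8.13 and 8.90 at weeks 0, 2, 4, 6 and 8 and fell after week 4, at a log2 difference of -3.17. DLL1, an activating ligand, had a log2 level of 5.78 at week 6 and 7.02 at week 4 and fell 2.36-fold. Among target genes HES4 had a log2 level of 9.50 at week 6 and 12.45 at week 4 and fell 7.71-fold, and HES5 fell 2.20-fold. JAG1, another ligand, had a log2 level of 9.05 at week 6 and 7.82 at week 4 and rose 2.35-fold. The receptors NOTCH1 and NOTCH3 were not called, at log2 differences of -0.64 and 0.12.

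Most measured pluripotency genes fell. POU5F1, a core pluripotency factor, was already below background at both weeks. Of 15 measured pluripotency genes 10 fell and none rose, with a median log2 difference of -1.24. LIN28A, an RNA-binding protein that blocks let-7 maturation, had log2 levels of 13.11, 12.02, 9.08, 5.95 and 4.40 at weeks 0, 2, 4, 6 and 8 and fell 8.71-fold between weeks 4 and 6. SALL4, a zinc-finger factor, had a log2 level of 7.97 at week 6 and 10.35 at week 4 and fell 5.20-fold. DNMT3B, the de novo DNA methyltransferase of early embryos, had a log2 level of 7.55 at week 6 and 9.80 at week 4 and fell 4.76-fold, with further probes at -1.39 and -1.58. ZFP42 and L1TD1 of the same list were not called, at log2 differences of 0.03 and 0.00.

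Some DNA replication genes fell. Among 41 measured members 13 fell and 0 rose, with a median log2 difference of -0.79, and 38 of the 41 had a difference below 0. MCM2, a subunit of the replicative helicase, had a log2 level of 8.46 at week 6 and 10.15 at week 4 and fell 3.22-fold. MCM4 had a log2 level of 8.17 at week 6 and 9.51 at week 4 and fell 2.53-fold, with a further probe at -1.71. RRM2, the regulated subunit of ribonucleotide reductase, had a log2 level of 6.67 at week 6 and 8.03 at week 4 and fell 2.57-fold. ORC6, of the origin recognition complex, was not called, with a log2 level of 14.55 at week 6 and 14.56 at week 4. The letters CCAAT, on either strand, stood in 8 of 11 promoters of the fallen replication genes, against 35.7% of all promoters. That share was 36.9% over the promoters of measured genes and 39.4% over those of all fallen genes. The letters TTTGAA, known from promoters of cell cycle genes, stood in 0 of the 11, against 15.4% of all promoters. Over the promoters of measured genes the share was 10.3%, and over those of all fallen genes 9.85%. The number of replication genes that fell was 6 without background correction and 7 with the authors' processed values.

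Mitosis genes fell less often than replication genes over the same interval. Of 39 measured members 3 fell (7.69%, against 4.26% over all genes) and CDC20 rose. The median log2 difference was -0.49, and 35 had a difference below 0. None of the 39 was lower by 2-fold without background correction or with the authors' processed values. FOXM1, a mitotic transcription factor, had a log2 level of 6.80 at week 6 and 7.90 at week 4 and fell 2.14-fold. CDC20, an activator of the anaphase-promoting complex, was not above background at weeks 0, 2 and 4, had log2 levels of 7.82 at week 6 and 6.26 at week 8 and rose at least 4.67-fold between weeks 4 and 6. At week 0 TOP2A, BIRC5 and CENPE of the same list had log2 levels of 11.97, 9.98 and 9.85. Whether the CDC20 probe reports its gene was not tested, so its first detection at week 6 is a property of this probe. MKI67, a proliferation marker, was near the detection limit, with a log2 level of 5.59 at week 6 and 5.80 at week 4, and was not called. Of 22 measured CDK inhibitors and p53 targets 4 rose and 2 fell, with a median log2 difference of 0.02. Among them the cell cycle inhibitor genes CDKN1A and CDKN2B rose 2.28-fold and 2.19-fold, although a further probe of CDKN1A differed by -0.44. The CDKN2B call was lost under 3 alternatives, at log2 differences between 0.72 and 0.98, and CDKN1B, CDKN2A and CDKN2D, named after their values were seen, were not called.

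The largest rise of all genes above background on both arrays belonged to TTR, transthyretin, the carrier of thyroid hormone that choroid plexus and retinal pigment epithelium are known to secrete. TTR had log2 levels of 4.77, 8.16, 7.04 and 13.51 at weeks 0, 2, 4 and 6, was higher still at week 8, and rose 88.5-fold between weeks 4 and 6. Of 13 measured choroid plexus genes 6 rose and none fell, with a median log2 difference of 0.83. HTR2C, a serotonin receptor abundant in choroid plexus, had a log2 level of 9.46 at week 6, was not above background at weeks 0, 2 and 4, and rose at least 14.6-fold. LMX1A, a roof plate factor, had a log2 level of 9.92 at week 6 and 7.33 at week 4 and rose 6.03-fold. MSX1, a homeobox factor of dorsal midline and neural crest, had a log2 level of 11.59 at week 6 and 9.05 at week 4 and rose 5.82-fold. CLIC6, a chloride channel of the choroid plexus, was not called, with a log2 level of 10.33 at week 6 and 10.50 at week 4. The CLIC6 probe was as bright in the undifferentiated line, at 10.65, so its level was not particular to differentiated cells. Of 17 measured genes of the retinal pigment epithelium list, which shares TTR, 5 rose and CDH1 fell, with a median log2 difference of 0.52. RPE65, BEST1, RLBP1 and MERTK, defining genes of that epithelium named after their values were seen, were not called. TRPM3, of the same list, a cation channel of choroid plexus and retinal pigment epithelium, had a log2 level of 10.53 at week 6 and 7.10 at week 4 and rose 10.8-fold, with a further probe at 3.20. PTGDS, prostaglandin D synthase, also listed there and known from choroid plexus, meninges and pigment epithelium, had a log2 level of 9.40 at week 6 and 5.99 at week 4 and rose 10.7-fold.

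Genes of motile cilia, which choroid plexus and other ciliated epithelia carry, rose in part. Of 17 measured cilium genes 7 rose and none fell, with a median log2 difference of 0.92. The count of risen cilium genes was 4 without background correction and 4 with the authors' processed values. SPAG6, a central apparatus protein, had a log2 level of 9.11 at week 6 and 6.11 at week 4 and rose 7.96-fold, with a further probe at 3.01. TEKT1, a tektin of the axoneme, had a log2 level of 8.83 at week 6 and 5.94 at week 4 and rose 7.42-fold. RSPH1, a radial spoke protein, was not above background at week 4 and rose at least 3.48-fold. FOXJ1, the master factor of motile ciliogenesis, was not called, with a log2 level of 9.85 at week 6 and 9.56 at week 4, and was already at 8.58 at week 0. HOATZ, a cilium and flagellum protein, rose at least 14.4-fold.

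Ligands, receptors and targets of WNT signalling, which patterns dorsal neural tissue and surface ectoderm, rose more often than they fell. Of 45 measured WNT genes 13 rose and 2 fell, with a median log2 difference of 0.50. WNT3A, a ligand of the dorsal midline, had log2 levels of 5.38, 9.80, 7.62, 10.11 and 8.23 at weeks 0, 2, 4, 6 and 8 and rose 5.59-fold between weeks 4 and 6. WNT5A, a ligand of the non-canonical branch, had a log2 level of 9.09 at week 6 and 7.01 at week 4 and rose 4.23-fold. RSPO2, a secreted enhancer of WNT signalling, had a log2 level of 10.99 at week 6 and 8.44 at week 4 and rose 5.84-fold, with a further probe at 2.38. The antagonists split, since DKK1 and DKK2 rose 3.04-fold and 3.20-fold while SFRP1 and SFRP2 fell. AXIN2, a feedback target of the canonical branch, was not called, with a log2 level of 11.24 at week 6 and 10.50 at week 4. The number of WNT genes that rose was 7 without background correction and 6 with the authors' processed values.

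In the BMP and TGF-beta pathway some feedback genes rose. Of 30 measured members 8 rose and ID3 fell, with a median log2 difference of 0.63. BAMBI, a pseudoreceptor that dampens signalling, had a log2 level of 12.41 at week 6 and 10.45 at week 4 and rose 3.90-fold. SMAD6, an inhibitory SMAD, had a log2 level of 9.53 at week 6 and 7.93 at week 4 and rose 3.03-fold. ID1, a direct BMP target, had a log2 level of 11.42 at week 6 and 9.99 at week 4 and rose 2.70-fold, while ID3, another target, had a log2 level of 8.64 at week 6 and 9.74 at week 4 and fell 2.14-fold. Without background correction 3 members of the list rose and none fell. Among insulin-like growth factor genes 6 of 15 measured members rose, with no member lower, led by IGFBP6, a binding protein, which had a log2 level of 11.35 at week 6 and 8.94 at week 4 and rose 5.32-fold. The risen members of that list numbered 3 without background correction and 3 with the authors' processed values. FGF9, a fibroblast growth factor, rose 3.82-fold and FGF18 fell at least 3.62-fold. GLI2, a Hedgehog transcription factor, had a log2 level of 8.82 at week 6 and 10.45 at week 4 and fell 3.09-fold.

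Many genes of stromal and mesenchymal cells rose. Of 28 measured genes of corneal stroma and fibroblasts 13 rose and none fell, with a median log2 difference of 0.86. PDGFRA, the platelet-derived growth factor receptor of mesenchymal cells, had log2 levels of 4.58, 9.04, 6.46, 9.80 and 10.77 at weeks 0, 2, 4, 6 and 8 and rose 10.1-fold between weeks 4 and 6, with a further probe at 3.10. PDGFRB, its relative on pericytes and fibroblasts, had a log2 level of 9.96 at week 6 and 7.72 at week 4 and rose 4.73-fold. TWIST1, a mesenchymal transcription factor, was above background at week 2, not at week 4 and again at week 6, had a log2 level of 8.07 at week 6 and rose at least 5.57-fold. LUM, lumican, a keratan sulphate proteoglycan of the stroma, had a log2 level of 10.90 at week 6 and 8.88 at week 4 and rose 4.06-fold, with a further probe at 1.75. DCN, decorin, had a log2 level of 12.67 at week 6 and 9.43 at week 4 and rose 9.46-fold, but a further probe of DCN differed by -0.25. VIM, the intermediate filament of mesenchymal and neural cells alike, was not called, with a log2 level of 14.30 at week 6 and 14.03 at week 4.

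Many collagens, which such cells and epithelia are known to lay down, rose as well. Of 26 measured collagen chains 12 rose and none fell, with a median log2 difference of 0.82. COL8A1 and COL8A2, the chains of the collagen of Descemet's membrane, rose 11.3-fold and 4.14-fold. COL16A1, a fibril-associated collagen, had a log2 level of 12.57 at week 6 and 10.21 at week 4 and rose 5.13-fold. COL6A3 had log2 levels of 5.97, 8.98, 6.30, 8.38 and 9.81 at weeks 0, 2, 4, 6 and 8 and rose 4.23-fold between weeks 4 and 6. COL2A1, a collagen of cartilage and of embryonic eye and notochord, had a log2 level of 13.42 at week 6 and 11.78 at week 4 and rose 3.10-fold, but a further probe of COL2A1 differed by -0.63. Among 23 measured matricellular genes 9 rose and 3 fell. SPARCL1, an anti-adhesive matrix protein, had a log2 level of 10.75 at week 6 and 6.86 at week 4 and rose 14.9-fold, with a further probe at 3.78. SMOC1, a calcium-binding matrix protein of the developing eye, had a log2 level of 6.37 at week 6 and 9.05 at week 4 and fell 6.40-fold. EGFL6, a secreted matrix protein, had a log2 level of 10.71 at week 6 and 5.83 at week 4 and rose 29.5-fold.

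Immediate early genes, which cells induce within minutes of a stimulus, were mostly higher at week 6. Among 18 measured members 10 rose and 0 fell, giving a median log2 difference of 1.11. EGR1, a zinc-finger factor, had log2 levels of 5.27, 4.79, 5.87, 9.23 and 6.53 at weeks 0, 2, 4, 6 and 8 and rose 10.2-fold between weeks 4 and 6. FOS, a subunit of AP-1, had a log2 level of 10.19 at week 6 and 8.34 at week 4 and rose 3.63-fold. ZFP36, which hastens mRNA decay, had a log2 level of 10.12 at week 6 and 7.77 at week 4 and rose 5.09-fold. JUN, not above background at week 4, rose at least 2.34-fold, and JUNB was not called, with a log2 level of 14.03 at week 6 and 14.08 at week 4. Culture handling at harvest is not recorded beyond the daily medium exchange, and its part in these values was not tested.

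Some genes of antigen display and of the interferon response were called. B2M, the invariant chain of HLA class I molecules, had log2 levels of 9.75, 9.72, 9.80, 11.37 and 11.99 at weeks 0, 2, 4, 6 and 8 and rose 2.95-fold between weeks 4 and 6. B2M was the only called member among 12 measured genes of HLA class I and peptide loading, a share of 8.33% near the 6.23% higher over all genes. Of 11 measured cytokine and chemokine genes 4 rose and none fell, with a median log2 difference of 0.51. CXCL16, a transmembrane chemokine, had a log2 level of 9.25 at week 6 and 7.03 at week 4 and rose 4.64-fold, although a further probe of CXCL16 differed by -0.37. Of 21 measured interferon-response genes 3 rose (14.3%) and 1 fell (4.76%), beside 6.23% and 4.26% over all genes. GBP1, a guanylate-binding protein, rose 6.04-fold, and UBE2L6, an ISG15-conjugating enzyme, fell 2.28-fold. The risen interferon-response genes numbered 1 without background correction, with an offset of 50 and with the authors' processed values. Of 19 measured S100 and annexin genes 8 rose and none fell, but 3 rose without background correction and 2 with the authors' processed values.

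Ribosomal protein, cholesterol synthesis, antioxidant and respiratory chain genes held few or no calls, beside 6.23% higher and 4.26% lower over all genes. Among 65 measured cytosolic ribosomal proteins, 25 cholesterol synthesis genes, 24 antioxidant enzymes, 11 smooth muscle genes and 14 endothelial and blood genes, none was called in either direction. Their median log2 differences were 0.11, -0.02, 0.02, -0.21 and -0.11. CYC1, a subunit of complex III, fell 2.30-fold and was the only called gene among 54 of the respiratory chain. GAPDH had a log2 level of 13.40 at week 6 and 13.45 at week 4, and ACTB had 14.33 at week 6 and 14.64 at week 4. Of 32 measured genes of hypoxia and glycolysis 3 fell (9.38%), 2 rose (6.25%) and 27 were not called. PFKFB3, HK2 and HK1, enzymes of glycolysis and its control, fell 4.17-fold, 2.66-fold and 2.18-fold, and P4HA2, a collagen prolyl hydroxylase, and NDRG1, a hypoxia-induced gene, rose 3.15-fold and 2.05-fold. The HK1 call was lost without background correction, at a log2 difference of -0.94, and with the authors' processed values, at -0.95. Among splicing factors 3 of 38 measured members fell (7.9%), against 4.26% over all genes. HNRNPL fell 3.20-fold, HNRNPM 2.65-fold and SNRPD1 2.46-fold, and the list median was -0.58. Of 16 measured imprinted genes 6 fell (37.5%) and IGF2 rose. DLK1, a Notch-related protein of progenitors, had a log2 level of 12.07 at week 6 and 13.96 at week 4 and fell 3.72-fold.

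Some of the largest single differences belonged to genes outside the groups above. For CRY2, KRR1, BHMT, GNPTG and ENY2 no further probe was above background on both arrays. CRY2, a repressor of the circadian clock, had log2 levels of 5.18, 5.43, 6.92, 12.61 and 13.28 at weeks 0, 2, 4, 6 and 8 and rose 51.4-fold between weeks 4 and 6. KRR1, a ribosome assembly factor, had a log2 level of 10.63 at week 6 and 6.68 at week 4 and rose 15.4-fold. BHMT, an enzyme that remethylates homocysteine, had a log2 level of 10.23 at week 6 and 6.63 at week 4 and rose 12.1-fold. GNPTG, a subunit of the enzyme that tags lysosomal proteins, had log2 levels of 7.11, 6.73, 12.86, 7.19 and 6.50 at weeks 0, 2, 4, 6 and 8 and fell 51.1-fold between weeks 4 and 6. ENY2, a subunit of chromatin and mRNA export complexes, had a log2 level of 8.01 at week 6 and 11.23 at week 4 and fell 9.29-fold. GNPTG was above background on all 5 arrays with its peak at week 4, while the CRY2 signal stayed high at week 8. NOS2, the inducible nitric oxide synthase, had a log2 level of 7.59 at week 6 and 10.82 at week 4 and fell 9.43-fold, with further probes at -3.03 and -3.13. STIM2, a calcium sensor of the endoplasmic reticulum, fell 7.12-fold on its brightest probe, but a further probe of STIM2 differed by -0.08.

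Other probes of the same gene offer a check within these arrays. Of 214 called genes with another probe above background on both arrays, 189 (88.3%) differed in the same direction on that probe and 103 also by at least 2-fold. Among the genes with values given here, DCN, CDKN1A, COL2A1, KIT and CXCL16 had a further probe of the opposite sign.

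The arrays of weeks 8 and 2 were compared in the same way. Week 2 lies before week 4, so this comparison does not measure whether a change after week 4 lasted. Over 12240 genes measured on those arrays 10.9% were higher at week 8 and 8.37% were lower. Of the 730 genes that rose between weeks 4 and 6, 478 (65.5%) were higher on the week 8 array than on the week 2 array as well, and 17 were lower. Of 490 genes that fell between weeks 4 and 6 and were measured at weeks 8 or 2, 186 (38.0%) were also lower at week 8 than at week 2 and 49 were higher. Of the genes uncalled between weeks 4 and 6, 7.69% were higher and 7.09% lower at week 8. All 5 arrays were normalized together, and each gene's probe was chosen over all of them.

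Lists were counted over these arrays too. Of 26 forebrain progenitor genes 10 were higher and 3 lower at week 8 than at week 2. LHX2 was among the genes higher at week 8 than at week 2, with a log2 level of 11.71 at week 8, which was still below its 12.82 at week 4. Neuron genes at week 8 against week 2 counted 4 higher and 13 lower of 44. Replication and mitosis genes were lower in 28 of 41 and 35 of 41 at week 8 than at week 2. Melanocyte genes were higher in 11 of 16, cilium genes in 11 of 16, lens genes in 9 of 13 and choroid plexus genes in 8 of 14.

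Week 4 was an extreme for many genes. At week 4 217 genes stood at least 2-fold above both neighbouring weeks and 114 at least 2-fold below both, against 21 and 17 genes at week 6. DLX1, GNPTG and INSM1 were at their highest at week 4, with GNPTG at 12.86 against 6.73 at week 2 on the log2 scale. Genes with a trough at week 4 included FBLN2, a matrix fibulin, at 10.89, 7.69 and 10.35 at weeks 2, 4 and 6 on the log2 scale, and the U4 small nuclear RNA genes RNU4-1 and RNU4-2, which rose 5.45-fold and 5.81-fold between weeks 4 and 6 and whose near-identical sequences these probes may not separate. Genes with a peak at week 6 included EGR1, CDC20 and WNT3A, given above, CYP8B1, a sterol 12-hydroxylase of bile acid synthesis, at 9.48, 12.28 and 10.69 at weeks 4, 6 and 8 on the log2 scale, and CLDN22, a claudin, at 7.26, 8.88 and 7.33. Genes with a trough at week 6 included INSM1, SCRG1 and SPON1, and SPON1, a secreted axon guidance protein, had 8.24, 6.82 and 8.86 at weeks 4, 6 and 8 on the log2 scale.

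**Figure D4:**
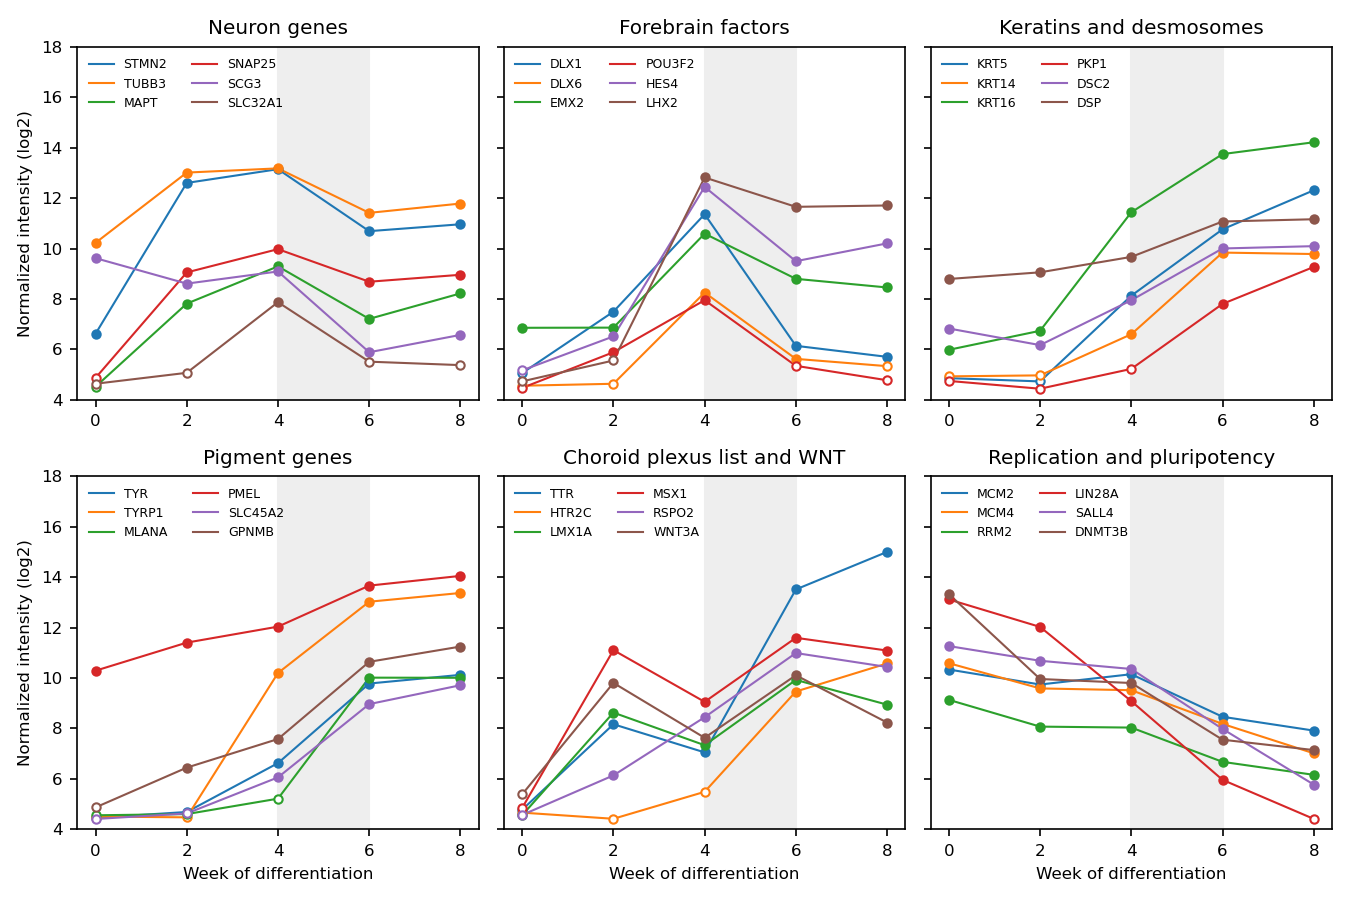
Log2 normalized intensity of 6 genes in each of 6 groups at weeks 0, 2, 4, 6 and 8, 1 array per week; the grey band marks the interval compared and open circles are not above background. Most neuron and forebrain genes stand highest at or near week 4, while SCG3 is highest at week 0. Keratin and pigment genes climb through the band, and replication and pluripotency genes run downward.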

How the data were processed

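The 5 Illumina HT-12 bead arrays, read in 1 colour, lay on 1 chip. Per the labels' protocols, total RNA was isolated with Trizol, purified with a DNase I step and converted to biotinylated cRNA. Per the file headers, the main deposited table gives a linear intensity for each probe before normalization. Its detection column, deposited as a fraction between 0 and 1, was taken to be 1 minus a detection p-value. The authors' processed intensity stands in another deposited table, made by a method not given in the sources. Of 47317 probes 30110 had 1 gene symbol in the platform annotation, covering 20045 genes; 30071 of these probes took their current symbol through an Entrez identifier.

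Signals were background corrected (normal-exponential model, background inferred from detection p-values, offset 16), quantile normalized over the 5 arrays and put on the log2 scale with neqc of limma 3.58.1 in R 4.3.3; later steps used Python 3.11.15, pandas 2.3.3 and numpy 2.4.6. A probe was above background at a detection p-value under 0.01. Each gene took its probe of highest mean over 5 arrays. Values not above background were raised, where lower, to the smallest detected log2 level of their array (5.58 at week 6, 5.60 at week 4). With 1 array per week no test was run; a call is a 2-fold difference. Array number limits the precision. The steps were also run on simulated data in which only brighter detected probes were changed. No change as small as 2-fold, no change in a dim gene and no spread between cultures was simulated.

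The rule named 15 genes with the largest difference and 10 with the largest bound each way, up to 8 called and 3 uncalled members of each of 63 lists, 14 genes in any case, and 5 genes for each kind of peak or trough at weeks 4 and 6. Any other gene is marked in the text as named with its values known. The members and lists were chosen with earlier results of these data known. Alternatives were no background correction, 75th percentile scaling, an offset of 50, a detection limit of 0.05, genes above background on both arrays, no filter, 2 arrays normalized alone, probe means, the authors' processed values, and calls at 1.5-fold and 4-fold.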

Additional observations from a re-analysis of the deposited data

Results flagged for a closer look

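Probes without a gene name in the platform annotation entered no comparison of genes but also differed between the weeks. Such probes above background on either array numbered 3899, of which 125 (3.21%) were higher at week 6 by 2-fold or more and 126 (3.23%) were lower by as much. The largest differences were 3.83 and -3.77 on the log2 scale. No gene can be given for these probes from the tables used here, and there was no replicate to set a background level of such differences.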

How the results depend on the processing

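With 1 array per week no replicate could be left out. No paired analysis was possible because each week had 1 array and the groups share a single replicate number. The counts of higher and lower genes were 328 and 222 without background correction, 307 and 212 with the authors' processed values, 1720 and 1485 with calls at 1.5-fold, and 133 and 75 with calls at 4-fold, against 730 and 500 as reported. The other 7 alternatives gave between 517 and 888 higher and between 340 and 636 lower genes. Genes higher made up 59.4% of all calls as reported and 56.8% after scaling to the 75th percentile, and the median over all genes stayed between -0.05 and 0.0 under the alternatives run. Of 297 called genes named by the rule, 175 kept their call under every alternative besides fold size that was run for them, 8 or 9 per gene, 121 lost it under at least 1 and MARCHF4, a ubiquitin ligase gene not above background at week 6, reversed to 0.10 with the authors' processed values, against -2.54 as reported. The median of the amnion and trophoblast list was -0.0158 with no filter on detection, against 0.58 as reported. Some list medians nearer 0 also changed sign. That of the muscle and cardiac list was 0.22 as reported and -0.11 among genes above background on both arrays. The cause of these changes was not tested. Low signal over background limits genes near the detection limit. Their folds are bounds only where 1 of the 2 arrays was not above background. LGALS7, COL8A1 and EGFL6 were above background at week 4 at log2 levels of 5.64, 5.63 and 5.83, near the smallest detected level of 5.60. Their folds are given without a bound and rest on that low signal.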

Other observations

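Some glial genes rose. Of 11 measured members 5 rose and SOX9 fell, with a median log2 difference of 0.73. The largest rise in the list was that of PDGFRA, which the stromal list shares. OLIG2, SLC1A2 and SLC1A3 were not called, at log2 differences of 0.73, -0.09 and -0.01, and 5 further members were below background on both arrays. NFIA, a transcription factor of the switch from neuron to glia production, had a log2 level of 8.83 at week 6 and 6.62 at week 4 and rose 4.60-fold, and HOPX, a marker of outer radial glia and of several epithelial stem cells, had 9.05 at week 6 and 6.69 at week 4 and rose 5.14-fold. SOX9, a factor of glia, neural crest and cartilage, had 9.68 at week 6 and 11.15 at week 4 and fell 2.77-fold. Of 14 measured neural crest genes 5 rose and 3 fell, and of 7 measured Hedgehog genes GLI2 alone was called.

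BCAN, a brain proteoglycan, had log2 levels of 5.23, 6.59, 5.16, 9.12 and 8.05 at weeks 0, 2, 4, 6 and 8, was not above background at week 4 and rose at least 11.5-fold between weeks 4 and 6. EYS, a photoreceptor matrix protein, was not above background at weeks 0, 2 and 4 and rose at least 9.71-fold. SCNN1A, a subunit of the epithelial sodium channel, had a log2 level of 7.86 at week 6, was not above background at week 4 and rose at least 4.82-fold, while SGK1, a kinase that regulates this channel, rose 3.91-fold with further probes at 1.87 and 2.08. AMBN, an enamel matrix protein, had a log2 level of 6.26 at week 6 and 9.33 at week 4 and fell 8.42-fold, with a further probe at -2.76. Of 58 measured genes of small nuclear and nucleolar RNAs 5 rose and 4 fell, with a median log2 difference of -0.04. These counts stand beside 6.23% higher and 4.26% lower over all genes.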
